A study of Rattus norvegicus with 47 samples.

Results

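The 10 genes followed here in rat whole blood belong to the immunoproteasome and to class I peptide loading: Psmb8, Psmb9, Psmb10, Psme1, Psme2, Tap1, Tap2, Tapbp, B2m and Nlrc5. They were chosen by gene symbol, and where a symbol had several probe sets the one with the highest signal over the time course was taken. All 10 symbols were found, so 10 probe sets were described out of the 27596 in the table, of which 21406 carried a gene symbol. The blood came from 8 male spontaneously hypertensive rats (SHR), 16 weeks old, in which the middle cerebral artery (MCA) was occluded with a thread and later reperfused under a second anaesthesia, between the 1 h and the 2 h draws. Each rat was bled before occlusion (0 h, before anaesthesia) and at 1, 2, 3, 6 and 24 h, which gave 47 arrays, 7 of them at 6 h and 8 at every other time. The 24 h blood was taken by puncture of the heart after an anaesthetic overdose and all earlier blood from a tail vein, so time and site of sampling cannot be told apart at 24 h. No sham-operated or untouched rats enter the comparison, and the reference is the same animals before surgery.

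The proteasome degrades cellular proteins, and some of the peptides it releases are shown to CD8 T cells on MHC class I molecules. When interferon-gamma acts on a cell, and constitutively in many lymphocytes and other blood leukocytes, the catalytic subunits Psmb5, Psmb6 and Psmb7 are replaced in newly built proteasomes by Psmb8, Psmb9 and Psmb10, which shifts cleavage towards peptides that fit class I grooves. Psme1 and Psme2 form the PA28 cap of the proteasome, Tap1 and Tap2 form the transporter that carries peptides into the endoplasmic reticulum, Tapbp (tapasin) holds the class I molecule at that transporter, B2m is its light chain, and Nlrc5 is the transactivator of the class I promoter.

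The promoters are shown because these genes are textbook targets of interferon regulatory factors, whose binding element (ISRE) holds a repeated core, GAAA, then any 2 bases, then GAAA. RefSeq windows of 300 bases (250 before and 50 after the annotated start, build GRCr8) were given for 9 of the 10 genes, not for Nlrc5. The core occurred on either strand in 7 of these 9 windows, against 3.92% of all 33469 windows, and in none of the 3 windows of the constitutive subunits Psmb5, Psmb6 and Psmb7. Each stretch below is read 5′ to 3′ along the strand of the gene, with the core in capitals, and a core with TTTC in place of GAAA lies on the other strand.
Psmb8 (chr20:4657016-4657045, minus strand): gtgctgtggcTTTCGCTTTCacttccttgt
Psmb10 (chr19:50743346-50743375, minus strand): aagcaaaggcGAAAGTGAAAgagaagatgc
Psme2 (chr15:33052785-33052814, minus strand): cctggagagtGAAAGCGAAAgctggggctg
Tap1 (chr20:4668645-4668674, minus strand): cggtggctgcTTTCGGTTTCttcttcctct
Tap2 (chr20:4652318-4652347, minus strand): gcagcgaagtGAAAGCGAAAgcccgggacc
Tapbp (chr20:4967878-4967913, minus strand): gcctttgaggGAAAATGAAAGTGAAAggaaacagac
B2m (chr3:129549170-129549199, plus strand): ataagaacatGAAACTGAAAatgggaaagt

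Tapbp held 2 cores that overlap by 1 repeat, and the Psmb10 window held 2 separate cores, of which the one farther from the start is printed. No core was found in the windows of Psmb9 and Psme1. Psmb9 and Tap1 start head to head on chromosome 20, with 456 bases between their starts, so the core of Tap1, which lies 112 bases before the Tap1 start, is also 336 bases before the Psmb9 start and outside the Psmb9 window. The 250 bases before each start are given for this pair and for B2m, because Psmb9 and Tap1 differed from 0 h only at 24 h and B2m at no time point. Capitals mark the ISRE core and a pair of NF-kB-like motifs, GGGA then any 2 bases then TTCC, and GGGAAA then any 2 bases then CC, which overlap each other in B2m.
Psmb9 (chr20:4668750-4668999, plus strand): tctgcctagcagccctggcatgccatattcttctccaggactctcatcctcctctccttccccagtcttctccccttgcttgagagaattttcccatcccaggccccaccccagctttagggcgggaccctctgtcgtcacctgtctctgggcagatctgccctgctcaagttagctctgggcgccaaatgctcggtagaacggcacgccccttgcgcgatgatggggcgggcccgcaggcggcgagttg
Tap1 (chr20:4668544-4668793, minus strand): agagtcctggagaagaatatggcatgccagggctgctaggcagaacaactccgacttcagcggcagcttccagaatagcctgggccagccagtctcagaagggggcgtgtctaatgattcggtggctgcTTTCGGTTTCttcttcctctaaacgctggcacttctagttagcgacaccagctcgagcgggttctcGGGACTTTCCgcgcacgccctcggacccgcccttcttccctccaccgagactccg
B2m (chr3:129549080-129549329, plus strand): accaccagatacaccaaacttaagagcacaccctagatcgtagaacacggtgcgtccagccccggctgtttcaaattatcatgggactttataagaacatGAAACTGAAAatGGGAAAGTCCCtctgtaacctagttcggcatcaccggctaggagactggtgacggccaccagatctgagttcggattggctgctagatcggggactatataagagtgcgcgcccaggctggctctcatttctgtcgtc

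The first NF-kB-like motif was found in 3 of the 9 windows (B2m, Tap1 and Tapbp), against 1.3% of all windows, and the other only in that of B2m, against 1.77%. The gamma-activated sequence (GAS), TTC then any 3 bases then GAA, was found in 1 of the 9 windows (Psmb8), against 8.87% of all windows. CCAAT was present for B2m, Psmb8 and Psmb9 (37.5% of all windows) and TGACG for B2m and Psmb9 (21.2%). A match describes letters in a window of the reference sequence, not read from the SHR animals, and is not a measured binding site.

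Signals are the authors' log2 RMA means at each time point, and the error is the authors' deposited SD between arrays. Over all probe sets the median SD lay between 0.14 and 0.16 at each time point. Of 56 blood cell markers in 7 lists, 54 had a 0 h signal above the median of the table, the exceptions being 1 neutrophil and 1 monocyte marker. Expression over the 6 time points passed the moderated F-test (Benjamini-Hochberg adjusted p below 0.05 over all probe sets) for 55.5% of all probe sets and for 8 of the 10 class I pathway genes. With 55.5% as the background, the count of calls alone says little about these genes, and their direction and timing are described below. Arrays of the same rats were treated as independent in these tests.

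The 10 genes followed several courses. Psmb8, Psmb10, Psme1 and Psme2 were low from 1 h on, Psmb9 and Tap1 fell at 24 h only, Nlrc5 rose at 2 h and fell later, Tapbp rose at 1 and 2 h, and Tap2 and B2m were not called. Against 0 h, 4 of the 10 were lower at 1 h (15.4% of all probe sets were lower) and 1 was higher (21.7%). At 2 h, 4 were lower (18.6%) and 2 higher (21.7%). At 3 h, 4 were lower (19.2%) and 0 higher (27.3%). At 6 h, 5 were lower (19.3%) and 0 higher (22.5%). At 24 h, 7 were lower (13.9%) and 0 higher (17.4%). The median change of the 10 genes was -0.05 at 1 h and -0.36 at 24 h, with -0.19 at 6 h in between, whereas the median of all probe sets stayed between 0.04 and 0.07. With quantile normalization of the time-point means, 2 genes were higher at 3 h (Tap1 and Tapbp) and 1 at 6 h (Tapbp). That setting also made Tap1 higher at 2 h (adjusted p = 0.039). It lost the lower calls of Psme1 at 1 h (0.068) and Nlrc5 at 6 h (0.137). With each time point centred on its median, Psmb9 was lower at 3 h (0.029) and Tapbp was no longer higher at 1 h (0.0651).

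**Figure D1:**
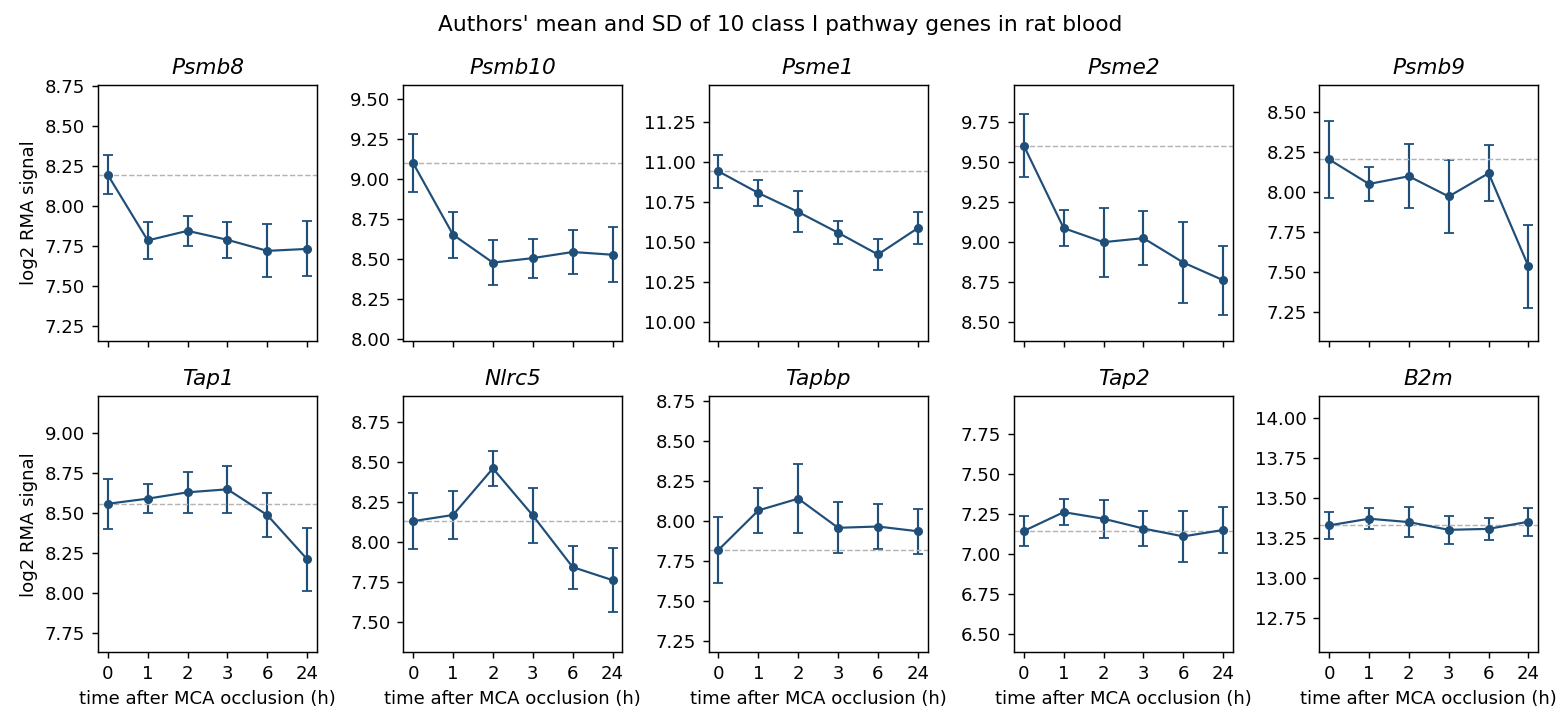
Authors' mean log2 RMA signal (vertical axis, the same span of 1.6 log2 units in each panel) against time after MCA occlusion (horizontal axis, not to scale) for the 10 genes; bars are the deposited SD of 8 arrays (7 at 6 h) and the dashed line is the 0 h mean. Psmb8, Psmb10, Psme1 and Psme2 lay below 0 h from 1 h on, Psmb9 and Tap1 dropped at 24 h, Nlrc5 peaked at 2 h, and B2m moved by 0.07 in all.

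Psmb8, Psmb10, Psme1 and Psme2 were lower than before occlusion at all 5 later time points. Of the 10 genes these were the only 4 to be so, as were 8.43% of all probe sets, and they comprise a pair of inducible catalytic subunits and both chains of the PA28 cap. Their falls at 24 h ranged from 0.36 for Psme1 to 0.84 for Psme2 on the log2 scale. Psmb8, Psmb10 and Psme2 were already low at 1 h, and Psme1 reached its lowest mean at 6 h.

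Psmb8, the inducible subunit that replaces Psmb5 (probe set 10831595, chr20:6069983-6073316, plus strand, build rn5 as for all probe sets), had mean signals of 8.20, 7.79, 7.85, 7.79, 7.72 and 7.73 at 0, 1, 2, 3, 6 and 24 h, with SDs between 0.09 and 0.17. The 0 h mean minus its SD lay above every later mean plus its SD. The signal fell by 0.41 at 1 h (95% interval -0.54 to -0.27, adjusted p = 4.99e-06), to 75.3% of its level before occlusion, and stood at 72.0% at 6 h and 72.6% at 24 h. None of the steps between neighbouring later time points passed the test.

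Psmb10 (probe set 10810727, chr19:48776567-48779058, minus strand) is the inducible subunit that replaces Psmb7. Its means were 9.10, 8.65, 8.48, 8.51, 8.55 and 8.53 in the same order, with SDs between 0.12 and 0.18. It was at 73.3% of the 0 h level at 1 h (adjusted p = 8.25e-06), 65.0% at 2 h (difference -0.62, 95% interval -0.77 to -0.47, adjusted p = 2.8e-09) and 67.2% at 24 h. Like Psmb8, it showed 1 drop by 1 h and no later step that passed the test.

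Psme1, the alpha chain of PA28 (probe set 10780396, chr15:38146266-38149144, plus strand), had means of 10.94, 10.81, 10.69, 10.56, 10.42 and 10.59, and small SDs between 0.07 and 0.13. The difference from 0 h was -0.14 at 1 h (adjusted p = 0.04). It then grew through -0.25 and -0.38 at the next draws to -0.52 at 6 h (95% interval -0.63 to -0.41, adjusted p = 6.89e-11, 69.7% of the 0 h level). No single step of this decline passed the test, but the signal at 24 h was 0.16 above that at 6 h (95% interval 0.05 to 0.28, adjusted p = 0.0269) and 0.22 below that at 1 h (difference -0.22, adjusted p = 0.00544). The 1 h call did not hold with quantile normalization (adjusted p = 0.068) or with the spread of the 2 time points alone (0.0589), and the rise from 6 to 24 h did not hold with the latter (0.0744).

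Psme2, the beta chain (probe set 10783805, chr15:38155747-38160198, minus strand), had means of 9.60, 9.09, 8.999, 9.02, 8.87 and 8.76 with SDs between 0.11 and 0.25. It fell by 0.52 at 1 h (adjusted p = 4.12e-05) and by 0.84 at 24 h (95% interval -1.03 to -0.65, adjusted p = 5.85e-09), when 55.8% of the 0 h level was left. The 24 h signal was also below that at 1 h (difference -0.33, adjusted p = 0.0303). Against 3 h it did not pass (adjusted p = 0.0588), except with quantile normalization (0.0441) and without the lowest 25% of probe sets (0.0492). A second probe set named Psme2, on chromosome 1 in rn5, was lower at the same 5 time points, by 0.60 at 1 h (difference -0.60) and 0.88 at 24 h (difference -0.88). RefSeq lists 3 Psme2 pseudogenes in the rat, so the 2 probe sets may share near-identical copies and are not independent.

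Marker genes of blood cells changed at the same times. The 8 B cell markers had median changes of -1.50, -2.07 and -0.53 at 1, 3 and 24 h, and the 10 T cell markers -0.44, -1.06 and -0.72. From 2 h on, all 10 T cell markers were lower, and at 2 h all 8 B cell markers. The neutrophil list of 9 genes was higher for all 9 from 1 to 6 h and for 8 at 24 h, with a median change of 0.84 at 1 h and 1.70 at 6 h. Over all probe sets, between 13.9% and 19.3% were lower and between 17.4% and 27.3% higher at these times. NK cell markers had medians of -0.16 at 1 h and -0.84 at 24 h, with 7 of 8 lower at 24 h. Platelet and erythroid lists had medians between -0.12 and 0.28. The monocyte list had medians between -0.34 and 0.17, over members that moved in opposite directions, since at 3 h 4 of its 8 genes were higher and 3 lower, with Cd14 at a difference of 1.84 and Cx3cr1 at -1.45. In whole blood, fewer cells of a type and less RNA per cell cannot be told apart, and the part of cell composition in any of the changes given here was not tested.

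**Figure D2:**
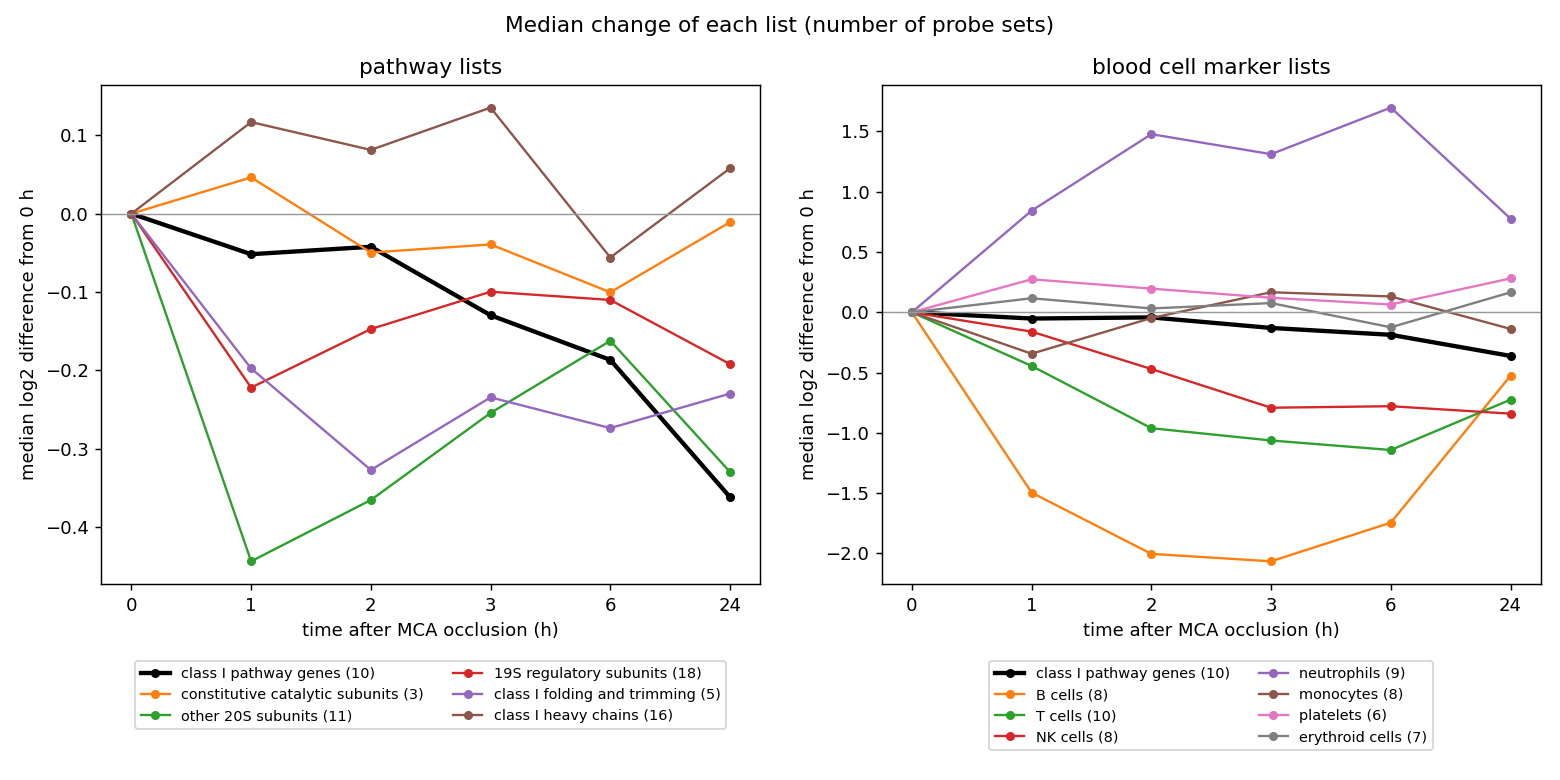
Median log2 difference from 0 h (vertical axis, different ranges in the panels) over the probe sets of each list against time after MCA occlusion (horizontal axis, not to scale); the black line is the 10 class I pathway genes. Their median went to -0.36 at 24 h, while the B cell median was lowest at 3 h (-2.07) and the neutrophil median highest at 6 h (1.70).

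Psmb9 and Tap1, neighbours on chromosome 20, were lower than at 0 h at 24 h only. Psmb9 (probe set 10828357, chr20:6052971-6058380, minus strand) is the inducible subunit that replaces Psmb6, and Tap1 (probe set 10831606, chr20:6058582-6069216, plus strand) is a chain of the peptide transporter. Psmb9 had means of 8.21, 8.05, 8.10, 7.97, 8.12 and 7.54, with the wider SDs of 0.11 to 0.26. Up to 6 h its differences from 0 h were between -0.23 and -0.09, of which that at 3 h (95% interval -0.44 to -0.03) came closest to the threshold (adjusted p = 0.0558). At 24 h it fell by 0.67 (95% interval -0.87 to -0.46, adjusted p = 1.87e-06), to 62.9% of the 0 h level. That level was also below the 6 h level, by a difference of -0.58 (adjusted p = 3.02e-05). The 3 h difference passed with each time point centred on its median (adjusted p = 0.029), without the lowest 25% of probe sets (0.0499), and with the spread estimated without the 24 h samples (0.044), a setting added after seeing the data.

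Tap1 had means of 8.56, 8.59, 8.63, 8.65, 8.49 and 8.21, and SDs from 0.09 to 0.20. Its differences from 0 h stayed between -0.07 and 0.09 up to 6 h, and at 24 h it fell by 0.35 (95% interval -0.49 to -0.20, adjusted p = 3.14e-04), to 78.6% of the 0 h level. The step from 6 to 24 h was -0.28 (adjusted p = 0.00617). With quantile normalization Tap1 was higher than 0 h at 2 h (adjusted p = 0.039) and 3 h (0.0213). Both genes passed the F-test only with the 24 h samples in it, since without them the adjusted p was 0.255 for Psmb9 and 0.241 for Tap1, and only the 24 h blood came from the heart.

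Set against the earlier times after occlusion, 5 of the 10 genes (Psmb9, Tap1, Nlrc5, Psme1 and Psme2) were lower at 24 h than at 1 h, as were 3.25% of all probe sets. Psmb9, Tap1 and Nlrc5 were also lower at 24 h than at 2 h (7.52% of all probe sets) and than at 3 h (7.17%). The step from 6 to 24 h was a fall for Psmb9 and Tap1 (8.68%) and a rise for Psme1 (10.2%). For Psmb8 and Psmb10 none of these 4 comparisons passed the test.

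Nlrc5, the transactivator of class I genes (probe set 10809303, chr19:10915271-10956438, minus strand), was higher than at 0 h at one time point and lower at others, which of the other genes held for Tap1 with quantile normalization only. Its means were 8.13, 8.17, 8.46, 8.17, 7.84 and 7.76, with SDs between 0.11 and 0.20. It rose by 0.33 at 2 h (95% interval 0.17 to 0.49, adjusted p = 7.22e-04), to 126% of the 0 h level, and this 2 h mean was the highest of the 6. It was lower by 6 h (difference -0.29, adjusted p = 0.00402) and at 24 h (difference -0.37, adjusted p = 3.75e-04), when it stood at 77.4% of the 0 h level. Between neighbouring draws 3 of its steps passed the test, namely a rise of 0.29 from 1 to 2 h (adjusted p = 0.0123; 4.66% of all probe sets rose), a fall of 0.29 from 2 to 3 h (adjusted p = 0.0236; 1.62% fell) and a fall of 0.32 from 3 to 6 h (adjusted p = 0.0125; 2.44% fell). No other of the 10 genes passed any of these 3 steps. The 6 h call was lost with quantile normalization (adjusted p = 0.137).

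Tapbp, the tapasin that bridges class I molecules and the transporter (probe set 10831762, chr20:7513505-7534610, minus strand), had means of 7.82, 8.07, 8.14, 7.96, 7.97 and 7.94, with SDs between 0.14 and 0.21. It rose by 0.25 at 1 h (95% interval 0.08 to 0.42, adjusted p = 0.0178) and by 0.32 at 2 h (95% interval 0.15 to 0.49, adjusted p = 0.0018), to 125% of the 0 h level. From 3 h on the difference was 0.14, 0.15 and 0.12 and did not pass the test. The 1 h rise did not hold with each time point centred on its median (adjusted p = 0.0651). Tapbp was the only one of the 8 genes past the F-test that had no lower call with the main settings. With quantile normalization it was lower at 24 h than at 2 h (difference -0.243, adjusted p = 0.0374).

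Tap2 and B2m passed none of the 12 comparisons made. Tap2, the other chain of the transporter (probe set 10831582, chr20:7259226-7273268, minus strand), had means of 7.14, 7.26, 7.22, 7.16, 7.11 and 7.15, with SDs between 0.08 and 0.16. Its difference from 0 h was 0.12 at 1 h (95% interval -0.01 to 0.24, adjusted p = 0.129) and 0.01 at 24 h (95% interval -0.12 to 0.13), an interval that holds no fall as large as the -0.35 of Tap1. The difference between the genes was not tested. B2m, the light chain of class I molecules (probe set 10839232, chr3:120627512-120632535, plus strand), had means of 13.33, 13.37, 13.35, 13.30, 13.31 and 13.35, with SDs of at most 0.10. All 5 intervals of its change lay between -0.12 and 0.13. Its signal was above that of 99.9% of the probe sets and close to the highest mean in the table, 13.6. Whether a change in RNA would be seen in full at this signal was not tested.

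**Figure D3:**
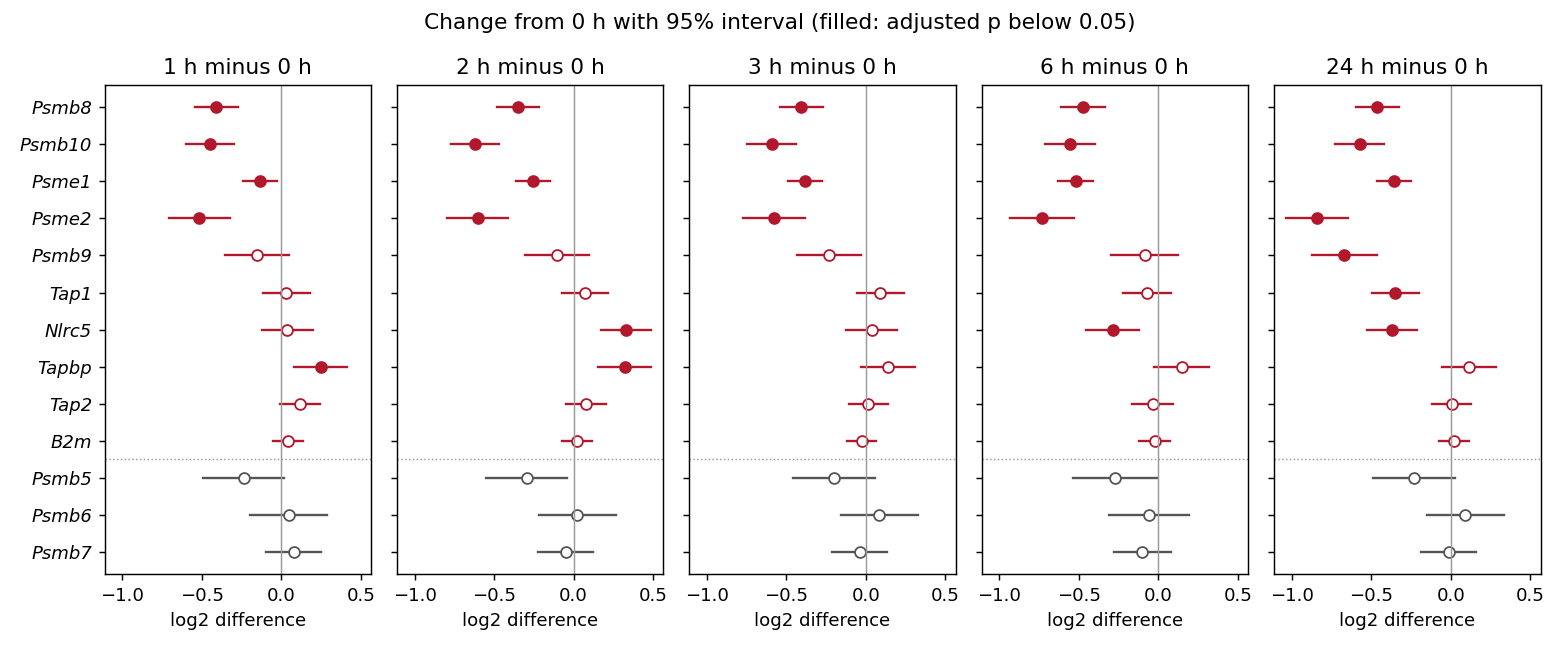
Log2 difference from 0 h (horizontal axis) with its 95% interval for the 10 class I pathway genes (red) and the 3 constitutive catalytic subunits (grey), 1 panel per time point; filled points passed the moderated test at an adjusted p below 0.05. Filled red points lie left of 0 for 4 genes at 1 h and 7 at 24 h, and right of 0 only for Tapbp and Nlrc5 at 1 or 2 h.

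The time courses of Psmb8, Psmb10 and Psme2 were the most alike. Over the 6 means, the correlation was 0.957 for Psmb8 with Psme2, 0.921 for Psmb10 with Psme2 and 0.920 for Psmb8 with Psmb10, the only 3 of 45 pairs above 0.9. Psmb9 was most like Tap1 (0.819), and Tap1 with Nlrc5 gave 0.815. The lowest value was -0.68 for Psmb10 with Tapbp, and the median over the 45 pairs was 0.389. These are descriptions over 6 means that share the same arrays and rats. All of Psmb8, Psmb9, Tap1, Tap2 and Tapbp lie on chromosome 20, in the rat MHC region, and their time courses ranged from low throughout (Psmb8) to no call (Tap2), whereas Psme1 and Psme2, 6602 bases apart on chromosome 15 in rn5, were both lower throughout.

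The constitutive catalytic subunits that the inducible ones replace were not called at any time point. Psmb5 had means of 8.30, 8.06, 8.01, 8.10, 8.03 and 8.07, and its difference at 2 h, -0.30 (95% interval -0.55 to -0.04, adjusted p = 0.0587), was larger than the called change of Psme1 at 2 h but had a wider spread, with SDs of up to 0.36. Psmb6 had a 24 h difference of 0.09 (95% interval -0.15 to 0.33) and Psmb7 of -0.01 (95% interval -0.18 to 0.16). A decline of Psmb6 or Psmb7 as large as that of Psmb9 at 24 h lay outside these intervals. The 24 h interval of Psmb5 (difference -0.23, 95% interval -0.49 to 0.03) does hold a fall as large as that of Psmb8. Inducible and constitutive subunits were not tested against each other.

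Most other subunits of the 20S core particle were lower at 1, 2 and 24 h. Of 11, 9 passed the F-test (55.5% of all probe sets did). At 1, 2 and 24 h 8 were lower, against 15.4%, 18.6% and 13.9% of all probe sets, and 5 at 3 h and 4 at 6 h, against 19.2% and 19.3%. Of the 11, 0 were higher at any time, where between 17.4% and 27.3% of all probe sets were, with median changes of -0.44, -0.16 and -0.33 at 1, 6 and 24 h. The 4 with the largest changes were Psma1 (-0.69 at 2 h), Psma5 (-0.59 at 2 h), Psma4 (-0.53 at 1 h) and Psma7 (-0.48 at 2 h), all alpha ring subunits. Their list median was thus lowest at 1 h, while that of the 10 class I pathway genes was lowest at 24 h.

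Most class I folding and trimming factors were lower too. Of 5, 4 passed the F-test (55.5% of all probe sets). At 1 h 3 were lower, at 2 and 3 h 4, and at 6 and 24 h 3, and 0 were higher, where between 13.9% and 19.3% of all probe sets were lower and between 17.4% and 27.3% higher. Erap1, which trims peptides in the endoplasmic reticulum, went from 9.44 at 0 h to 8.58 at 2 h (difference -0.85). The chaperones Canx (-0.35) and Pdia3 (-0.33) and the tapasin relative Tapbpl (-0.32) also fell at 2 h, which contrasts in sign with Tapbp. Of 23 class I heavy chain symbols, 21 were found in 16 probe sets, of which 10 passed the F-test, a share near the 55.5% of all probe sets. At 1 h, 6 were higher (21.7% of all probe sets) and 3 lower, the latter near the background of 15.4%, and at 6 h 0 were higher (22.5%) and 6 lower (19.3%). RT1-N3 (-1.05 at 6 h), RT1-M3-1 (-0.86 at 3 h) and RT1-N2 (-0.48 at 6 h) had the largest falls, and RT1-T24-1 rose by 0.35 at 1 h. Some of these genes are closely related, and their probe sets may read one another, which was not tested.

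Genes of the interferon-gamma pathway, which drives the immunoproteasome, moved in both directions. Of 15, 13 passed the F-test (55.5% of all probe sets), and Ifng, the ligand (adjusted p = 0.22), and Jak2 (0.745) did not. Both receptor chains rose to a peak at 6 h, Ifngr1 by 1.16 and Ifngr2 by 0.96. Irf1, which binds the ISRE, rose by 0.40 at 2 h (adjusted p = 0.00271) and 0.31 at 3 h, and its 24 h difference of -0.27 did not pass (adjusted p = 0.0578).

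The 2 h rise of Irf1 was at the time of the Nlrc5 peak. Irf8, which is high in B cells and monocytes, fell by 1.07 at 2 h, and Ciita, the class II counterpart of Nlrc5, fell by 1.19 at 2 h and was still lower at 24 h (difference -0.58). Jak1 fell by 0.27 at 2 h, Irf2 by 0.27 at 6 h and Nfyc by 0.34 at 2 h, while Creb1 rose by 0.56 at 6 h. The subunits of the RFX complex, which binds class I and class II promoters, also fell, Rfx5 by 0.26 at 2 h, Rfxap by 0.26 at 1 h and Rfxank by 0.16 at 6 h.

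**Figure D4:**
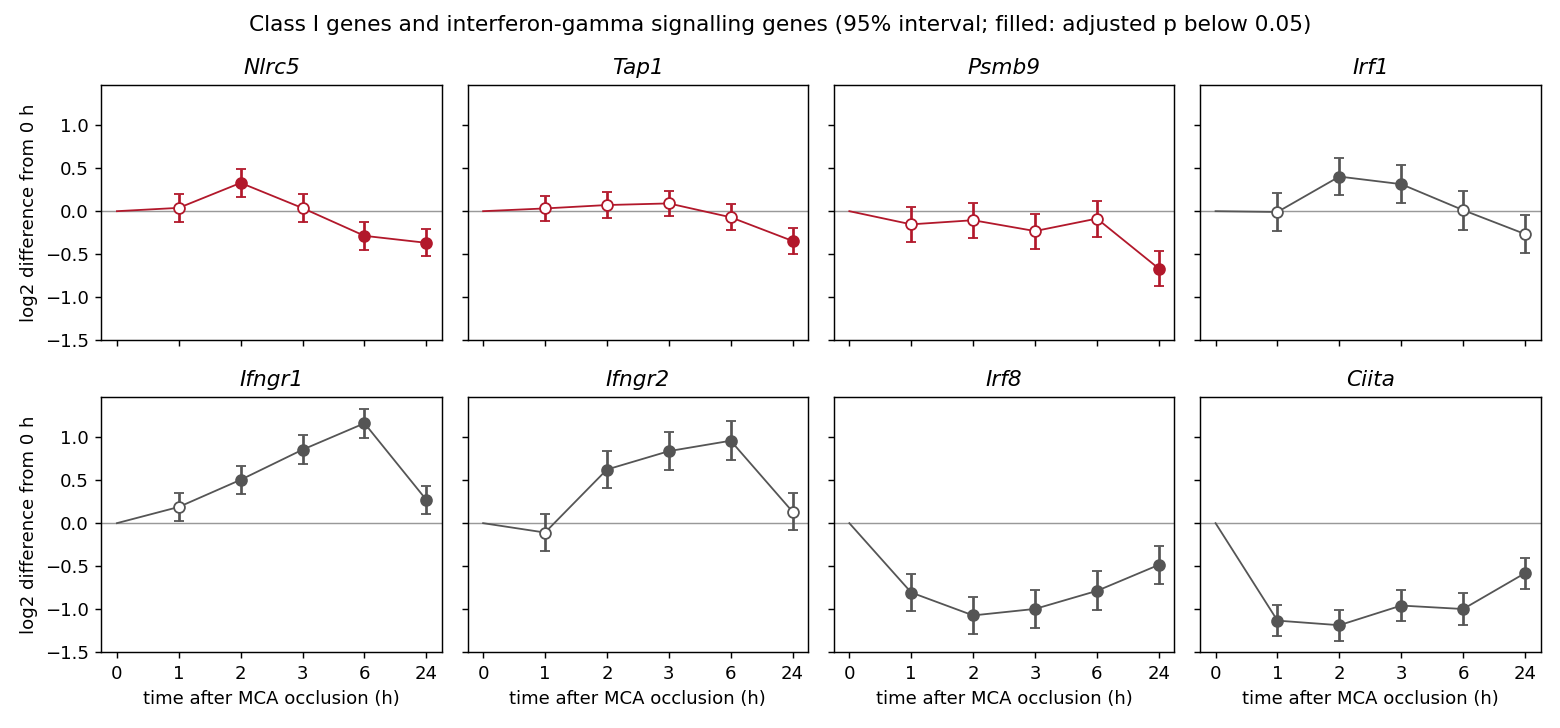
Log2 difference from 0 h (vertical axis) with its 95% interval against time after MCA occlusion (horizontal axis, not to scale) for 3 class I pathway genes (red) and 5 interferon-gamma pathway genes (grey); filled points passed the moderated test at an adjusted p below 0.05. Nlrc5 and Irf1 were highest at 2 h, Psmb9 and Tap1 lowest at 24 h, Ifngr1 and Ifngr2 highest at 6 h, and Irf8 and Ciita were low from 1 h on.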

How the data were processed

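Whole-blood RNA from 47 arrays (8 rats, 6 time points) was measured on an Affymetrix rat gene array. The authors deposited RMA-normalized log2 values as a mean and an SD per time point for 27596 probe sets, annotated on rn5. The submitters' processing notes name limma. The table's fold changes, F statistics, p-values and adjusted p-values, which hold the authors' own comparisons, were not used. Its 47 single-array columns carry running numbers (Sample 1 and so on) that name neither rat nor time and match no sample label. They were not assigned to samples by their order or values and were not used, so the rat is not in the fit, the repeated draws of a rat are treated as independent, and per-array values are not given.

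From means, SDs and numbers of arrays, the pooled variance of each probe set (41 residual degrees of freedom) was moderated as in limma's eBayes (prior degrees of freedom 5.71), with Python 3.11.15, NumPy 2.4.6 and SciPy 1.17.1. The F-test and 12 comparisons were adjusted by Benjamini-Hochberg over all probe sets and called below 0.05. Intervals cover 95%. The procedure was tested on simulated data. The number of arrays limits the precision. Genes named are the 10 class I pathway genes, the constitutive catalytic subunits, interferon-gamma pathway genes past the F-test, and at most 4 genes of each other pathway list, those with the largest change among genes past the F-test. A result of the interferon-gamma list is not reported here. Not past the F-test, Ifng and Jak2 were named after their values were seen. Members and lists were chosen with earlier results of these data known. Alternatives were an ordinary variance, an intensity trend, median centring, quantile normalization, a filter on low signal, the spread of 2 time points alone, Bonferroni, other probe sets of a symbol and leaving out 24 h. Motifs were searched on both strands of RefSeq promoter windows (GRCr8), matched by symbol for 9 of 10 genes.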

Additional observations from a re-analysis of the deposited data

Results flagged for a closer look

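Psmb9, Tap1 and Nlrc5 were flagged because their level at 24 h differed from their levels at 1, 2 and 3 h by the moderated test of that difference (Benjamini-Hochberg over all probe sets). For Psmb9 the 24 h level minus the earlier one was -0.52 at 1 h (adjusted p = 4.35e-04), -0.56 at 2 h (3.47e-05) and -0.44 at 3 h (0.00151). For Tap1 it was -0.38 (3.49e-04), -0.42 (2.28e-05) and -0.44 (1.21e-05). For Nlrc5 it was -0.41 (3.66e-04), -0.70 (1.6e-09) and -0.40 (1.58e-04). Nlrc5 was already lower at 6 h, in tail-vein blood, although this call was lost with quantile normalization (adjusted p = 0.137). Its 24 h level minus that at 6 h was -0.08 (adjusted p = 0.566), whereas Psmb9 and Tap1 were lower at 24 h than at 6 h. Only the 24 h blood came from the heart, and its part in these differences cannot be told apart from time.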

How the results depend on the processing

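No paired analysis was possible because the names of the single-array columns give neither rat nor time and columns were not assigned by order or values, so neither a rat block nor leaving out 1 array was run. Over 865 results for single genes under the alternatives, 829 kept their direction and side of the threshold, 9 lost the call, 10 gained one and 17 changed sign. The calls of Psmb8, Psmb10 and Psme2 against 0 h were kept under every alternative run. With each time point centred on its median, 0 of the 10 genes were higher at 1 h in place of 1, and 3465 of all probe sets in place of 5997, and at 24 h 2749 in place of 4794. Centring moved the share of higher calls among all probe sets from 58.6% to 40.0% at 1 h, from 58.7% to 47.2% at 3 h, from 55.6% to 37.3% at 24 h, and from 53.1% to 64.4% between 1 and 2 h. With quantile normalization 2 genes were higher at 3 h and 1 at 6 h, in place of 0. With Bonferroni adjustment 4242 probe sets passed the F-test in place of 15302, and Tap1 (0.0538) and Tapbp (1) did not. With the spread of the 2 time points alone, 396 probe sets were higher and 341 lower between 3 and 6 h, in place of 645 and 674, and 0 of the 10 genes rose from 6 to 24 h in place of 1.

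The sign changes were all of differences near 0 that passed no test. Centring gave -0.0169 for Tap1, -0.0072 for B2m and -0.0103 for Nlrc5 at 1 h, -0.00815 for B2m at 2 h, -0.0229 for Tap2 and -0.0023 for Nlrc5 at 3 h, -0.035 for Tap2 and -0.0184 for B2m at 24 h, and -0.0102 for B2m from 2 to 24 h. Quantile normalization gave 0.0216 for Psmb9 at 2 h, 0.0193 for B2m at 3 h, 0.043 for Psmb9, 0.0456 for Tap1, 0.00823 for Tap2 and 0.0566 for B2m at 6 h, and -0.0102 for Psmb8 and -0.0263 for B2m from 6 to 24 h. The cause of these shifts was not tested. Leaving the 24 h samples out of the spread, chosen after seeing the data, changed 1 call, Psmb9 at 3 h.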

Other observations

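Other parts of the proteasome and the interferon-stimulated genes had values that belong to none of the comparisons above. Of 18 subunits of the 19S regulatory particle, which unfolds proteins for the core, 15 passed the F-test (55.5% of all probe sets). At 1 h 10 were lower (15.4% of all probe sets) and 0 higher (21.7%), and at 24 h 9 were lower (13.9%) and 1 higher (17.4%), with median changes of -0.22 and -0.19. Psmd14, the deubiquitinase of the lid, fell by 0.87 at 2 h, Psmd1 by 0.64 and Psmd6 by 0.57 at 2 h, whereas Psmd11 rose by 0.56 at 6 h. Among 8 other activators and assembly factors, 6 passed the F-test, against 55.5%, with the assembly chaperone Psmg2 lower at 2 h (difference -1.09), the activator Psme3 lower at 6 h (-0.45), the activator Psme4 higher at 24 h (0.51) and the inhibitor Psmf1 higher at 1 h (0.36).

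Of 16 interferon-stimulated genes, 15 passed the F-test (55.5% of all probe sets). At 1 h 6 were higher and 4 lower, against 21.7% and 15.4% of all probe sets, and at 24 h 1 was higher and 9 lower, against 17.4% and 13.9%, with median changes of 0.15 and -0.39. The antiviral GTPase Mx2 fell by 2.21 at 24 h and its relative Mx1 by 1.72 at 6 h, the chemokine Cxcl10 fell by 1.03 at 6 h, and Usp18, which removes Isg15 from proteins, fell by 1.00 at 24 h. The medians of this list and of the 10 class I pathway genes were both lowest at 24 h.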
